A study of Homo sapiens with 3 samples.

Results

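The let-7 guide strands are the 9 mature miRNAs hsa-let-7a-5p, hsa-let-7b-5p, hsa-let-7c-5p, hsa-let-7d-5p, hsa-let-7e-5p, hsa-let-7f-5p, hsa-let-7g-5p, hsa-let-7i-5p and hsa-miR-98-5p. They were taken by name from a table of mature miRNAs, and the counts of each were summed over the hairpins that can produce it. All 9 averaged 10 counts or more per library, as did 514 of the 1351 endogenous miRNAs with any count, out of 2580 listed. The libraries came from Flp-In T-REx 293 cells, a HEK293 derivative with a tetracycline-controlled repressor, into which a lentivirus brought a GFP reporter that doxycycline switches on, with the miRNA hairpin in its intron. The 3 groups were cells with the empty vector (control), with a miR-1 hairpin and with a miR-122 hairpin, chosen because this line does not normally express either of these muscle and liver miRNAs. Every group, the control included, was transduced and kept in 1 mg/mL Geneticin for 6 days, then in a lower concentration of it. Doxycycline was given at 1 ug/mL for 7 days, and the culture medium of this line also held Zeocin. Each culture is a selected population rather than a clone, and each group held 1 library made from 1000 ng of total RNA, so differences between libraries have no replicate check and no p-value is given.

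The induced miRNAs matched the labels. miR-1-3p had 166, 1100840 and 369 counts and miR-122-5p had 10, 10 and 627576, where values given in threes are for the control first, then miR-1, then miR-122. The libraries held 1636834 to 2892684 miRNA counts, of which 1636481 to 1947669 were endogenous, and 1 count was worth 0.532 to 0.594 scaled CPM, which is a count per 1000000 of the effective library size. Endogenous here means not listed under a synthetic hairpin. miR-3591-5p, with 1, 0 and 1756 counts, is thus included, and whether its reads came from the induced hairpin was not tested. Of 6 miRNAs of blood cells, miR-223-3p was at 0 in all libraries, miR-486-5p had 434 to 592 counts and the remaining 4 summed to 16 to 27.

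let-7 miRNAs are among the most conserved animal miRNAs and are best known as regulators of developmental timing and of differentiation. A miRNA guide strand is loaded into an Argonaute protein and finds its targets mainly through its seed, bases 2 to 8 from the 5′ end. For let-7 these targets include mRNAs of RAS genes, HMGA2 and LIN28, and the LIN28 proteins in turn bind let-7 precursors and block their maturation. The opposite arm of the same hairpin gives the passenger strand, which is mostly degraded.

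The 9 sequences are shown because all the comparisons below rest on telling them apart. They are RefSeq entries from the GRCh38.p14 table, written 5′ to 3′ with the seed in capitals.
hsa-let-7a-5p: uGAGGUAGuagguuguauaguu
hsa-let-7b-5p: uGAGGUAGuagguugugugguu
hsa-let-7c-5p: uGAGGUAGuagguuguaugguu
hsa-let-7d-5p: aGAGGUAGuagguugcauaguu
hsa-let-7e-5p: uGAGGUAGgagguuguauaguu
hsa-let-7f-5p: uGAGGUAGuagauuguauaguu
hsa-let-7g-5p: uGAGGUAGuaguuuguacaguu
hsa-let-7i-5p: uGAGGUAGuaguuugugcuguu
hsa-miR-98-5p: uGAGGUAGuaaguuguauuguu

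All 9 are 22 nt long and share the seed, so that a level per length ranks them as the counts do. Against let-7a, with positions counted from 1 at the 5′ end and the base of let-7a first, 3 members differ by 1 base: let-7c (A19G), let-7e (U9G) and let-7f (G12A). A further 4 differ by 2 bases, namely let-7b (A17G and A19G), let-7d (U1A and U16C), let-7g (G12U and U18C) and miR-98 (G11A and A19U). let-7i differs by 4 (G12U, A17G, U18C and A19U). Over all pairs, 4 differed by 1 base (let-7a with let-7c, let-7e and let-7f, and let-7b with let-7c), and the most distant pair, let-7d and let-7i, differed by 6. The 2 other listed miRNAs with this seed, miR-4458 and miR-4500, had 0 counts in every library, where 3 counts, the limit that a count of 0 allows, would be 1.59 to 1.78 scaled CPM.

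The 12 hairpins lie on 8 chromosomes. In GRCh37 coordinates, MIRLET7A1 (chr9:96938234-96938325), MIRLET7F1 (chr9:96938629-96938715) and MIRLET7D (chr9:96941116-96941202) follow each other on the plus strand within exons of the non-coding gene MIRLET7A1HG. MIRLET7A3 (chr22:46508629-46508702) and MIRLET7B (chr22:46509566-46509648) lie 863 bases apart in exons of MIRLET7BHG. MIRLET7F2 (chrX:53584153-53584235) and MIR98 (chrX:53583184-53583302) lie 850 bases apart on the minus strand in an intron of HUWE1, which encodes a ubiquitin ligase. MIRLET7A2 (chr11:122017229-122017301, minus strand) is intronic in MIR100HG, MIRLET7C (chr21:17912143-17912236) is in an exon of MIR99AHG and MIRLET7E (chr19:52196039-52196117) is in an intron of SPACA6. MIRLET7G (chr3:52302292-52302379, minus strand) is in an intron of WDR82, and MIRLET7I (chr12:62997466-62997550) is in an intron of MIRLET7IHG and an exon of another lncRNA.

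The family as a whole differed little between the libraries. It held 82091, 84089 and 98561 counts, or 48728, 46794 and 52400 scaled CPM. As a share of endogenous counts this was 5.02% (95% Wilson interval 4.98 to 5.05) in the control, 4.69% (4.66 to 4.72) with miR-1 and 5.06% (5.03 to 5.09) with miR-122, and this and every other interval covers counting error only. The log2 ratio to the control was -0.06 (95% interval -0.07 to -0.04) with miR-1 and 0.10 (0.09 to 0.12) with miR-122. The sign of neither held under every setting. The miR-1 ratio was 0.035 with upper-quartile scaling. The miR-122 ratio was -0.017 when only the highest hairpin row of each miRNA was counted. Over the scalings that leave out the induced miRNAs, the miR-122 ratio ran from 0.013 (total endogenous counts) to 0.21 (upper quartile). The deposited RPM values show a different picture, with 50152 RPM in the control, 29070 with miR-1 and 38242 with miR-122, log2 ratios to the control of -0.79 and -0.39. The induced miRNAs are part of the total by which RPM is scaled, and they made up 38.1% and 24.4% of all counts in their own libraries.

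A few members carried most of the family. let-7a, let-7f and let-7g together made up 87.3% of family counts in the control, 89.2% with miR-1 and 89.9% with miR-122, while let-7b, let-7c, let-7d and miR-98 together made up 4.46%, 3.76% and 3.76%. In all 3 libraries the order was let-7a, let-7f, let-7g, let-7i, let-7e, let-7c, let-7b, miR-98 and let-7d. Counting the highest hairpin row alone puts let-7f above let-7a in the control and with miR-1. In the control it also puts let-7g above let-7a, at 27.3% against 23.1% of the family. The shares of neighbours in this order had 95% intervals that did not overlap in any library. The smallest gap was between let-7i and let-7e in the miR-122 library, 1.08-fold, and the spread between cultures, against which this gap would have to be set, was not measured. let-7a ranked 15 among endogenous miRNAs in the control, 14 with miR-1 and 10 with miR-122, and let-7d ranked 218, 214 and 226.

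**Figure D1:**
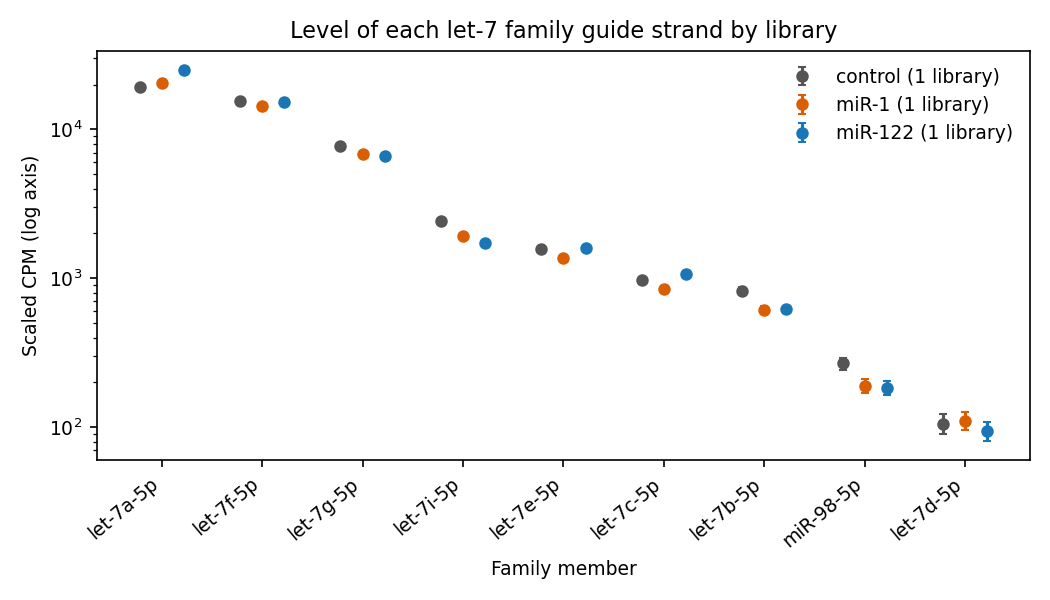
Level of each guide strand (x axis, ordered by abundance) in scaled CPM on a log axis, with 1 point per library and exact 95% Poisson intervals for counting error. The order of the members is the same in the 3 libraries, and let-7a-5p in the miR-122 library, at 25107 scaled CPM, is the highest point.

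let-7a was the only member whose share of the family was above the control in both miRNA libraries beyond counting error. It had 32662 counts in the control, 36948 with miR-1 and 47225 with miR-122, or 19388, 20561 and 25107 scaled CPM. Both miRNA libraries were above the control, and the miR-122 library was the highest. let-7a made up 39.8% (95% interval 39.5 to 40.1) of family counts in the control, 43.9% (43.6 to 44.3) with miR-1 and 47.9% (47.6 to 48.2) with miR-122. These shares were 4.15 (3.68 to 4.63) and 8.13 (7.67 to 8.58) percentage points above the control. A share within the family does not depend on how libraries are scaled. In scaled CPM, let-7a was higher than in the control by 1173 with miR-1 and 5720 with miR-122, whereas the other 8 members summed to 29340 in the control, 26233 with miR-1 and 27293 with miR-122.

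**Figure D2:**
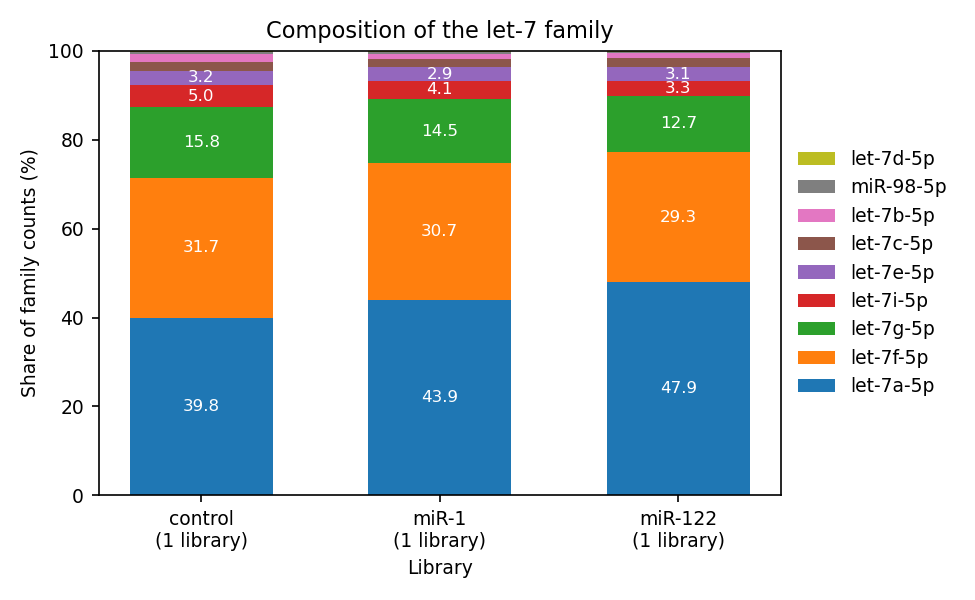
Share of family counts (y axis, %) taken by each guide strand in each of the 3 libraries (1 per group), stacked from the most to the least abundant member. The lowest segment, let-7a-5p, takes 39.8%, 43.9% and 47.9%, and the segments of let-7g-5p and let-7i-5p are thinner in both miRNA libraries than in the control.

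let-7f, a single base from let-7a, did not follow it. let-7f had 26015, 25830 and 28864 counts, or 15442, 14374 and 15346 scaled CPM, so that the control and the miR-122 library were almost level. The count ratio of let-7a to let-7f was 1.26 (1.24 to 1.28) in the control, 1.43 (1.41 to 1.45) with miR-1 and 1.64 (1.61 to 1.66) with miR-122. let-7g, the next most abundant, had 13010, 12233 and 12502 counts, or 7723, 6807 and 6647 scaled CPM, with the control above both other libraries. There were 2.51 (2.46 to 2.56), 3.02 (2.96 to 3.08) and 3.78 (3.70 to 3.85) let-7a counts per let-7g count.

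let-7i, let-7b and miR-98 were lower than the control in both miRNA libraries. let-7i had 4092 counts in the control, 3441 with miR-1 and 3247 with miR-122, or 2429, 1915 and 1726 scaled CPM. let-7b had 1388, 1108 and 1163 counts, or 824, 617 and 618 scaled CPM. miR-98 had 451, 339 and 346 counts, or 268, 189 and 184 scaled CPM. For let-7b and miR-98 the miR-1 and miR-122 libraries stood close together and the control apart. The count ratio of let-7a to let-7i went from 7.98 (7.73 to 8.25) in the control to 10.7 (10.4 to 11.1) with miR-1 and 14.5 (14.0 to 15.1) with miR-122.

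The remaining 3 members gave no common pattern. let-7c had 1641.75, 1519.75 and 2023 counts, or 975, 846 and 1076 scaled CPM, lowest with miR-1 and highest with miR-122. let-7c and let-7b, which differ by 1 base, thus stood at a count ratio of 1.18 (1.10 to 1.27) in the control, 1.37 (1.27 to 1.48) with miR-1 and 1.74 (1.62 to 1.87) with miR-122. let-7e had 2654, 2471 and 3015 counts, or 1575, 1375 and 1603 scaled CPM, with the miR-1 library the low one. let-7d, the least abundant, had 177, 199 and 176 counts, or 105, 111 and 93.6 scaled CPM, and its counts were too few to place the libraries in order.

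Set against the control, the members spread on either side of the family total. With miR-1, the log2 ratios were 0.08 (0.06 to 0.11) for let-7a, -0.10 (-0.13 to -0.08) for let-7f and -0.18 (-0.22 to -0.15) for let-7g. let-7e and let-7c both stood at -0.20, let-7i at -0.34 (-0.41 to -0.28), let-7b at -0.42 (-0.53 to -0.30) and miR-98 at -0.50 (-0.71 to -0.30). The interval of let-7d, 0.08 (-0.22 to 0.38), included 0. None of the 9 members differed 1.5-fold or more, against 16.7% of the 514 endogenous miRNAs, and 7 of 9 were below 0, against 50.2%. The median over the members was -0.20, beside a median of -0.00 over the 514. Single miRNAs had a spread (a scaled median absolute deviation of their log2 ratios) of 0.31 over all 514 and of 0.18 over the 108 that averaged 1000 counts or more, as all members but let-7d and miR-98 did. These 108 are closer to the members in counts than the 514 are, and their ratios spread less. The share of the 514 past 1.5-fold, here and in the comparisons below, is thus not matched to the members in counts. By distance from 0, 5 of the 9 members lay beyond the spread of the 108, against 26.85% of the 108 themselves. Measured from the median of the 108, -0.03, let-7c and let-7e lay within it, and let-7b, let-7i and miR-98 stayed beyond it.

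With miR-122 the members lay further apart. The log2 ratio was 0.37 (0.35 to 0.39) for let-7a, 0.14 (0.05 to 0.24) for let-7c, and close to 0 for let-7e, 0.02 (-0.05 to 0.10), and let-7f, -0.01 (-0.03 to 0.02). Below the control stood let-7g at -0.22 (-0.25 to -0.18), let-7b at -0.41 (-0.53 to -0.30), let-7i at -0.49 (-0.56 to -0.43) and miR-98 at -0.54 (-0.75 to -0.34), and the interval of let-7d, -0.17 (-0.48 to 0.14), again included 0. None of the 9 differed 1.5-fold or more, against 27.0% of all 514, and 6 of 9 were below 0, against 53.3%. The median over the members was -0.17, beside -0.04 over all. Here the spread of single miRNAs was 0.52 over all 514 and 0.40 over the 108 abundant ones. By distance from 0, 3 of the 9 members lay beyond the spread of the 108, against 30.6% of the 108 themselves. Both comparisons use the same control library, so each member's values in them rest on 1 shared control count.

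**Figure D3:**
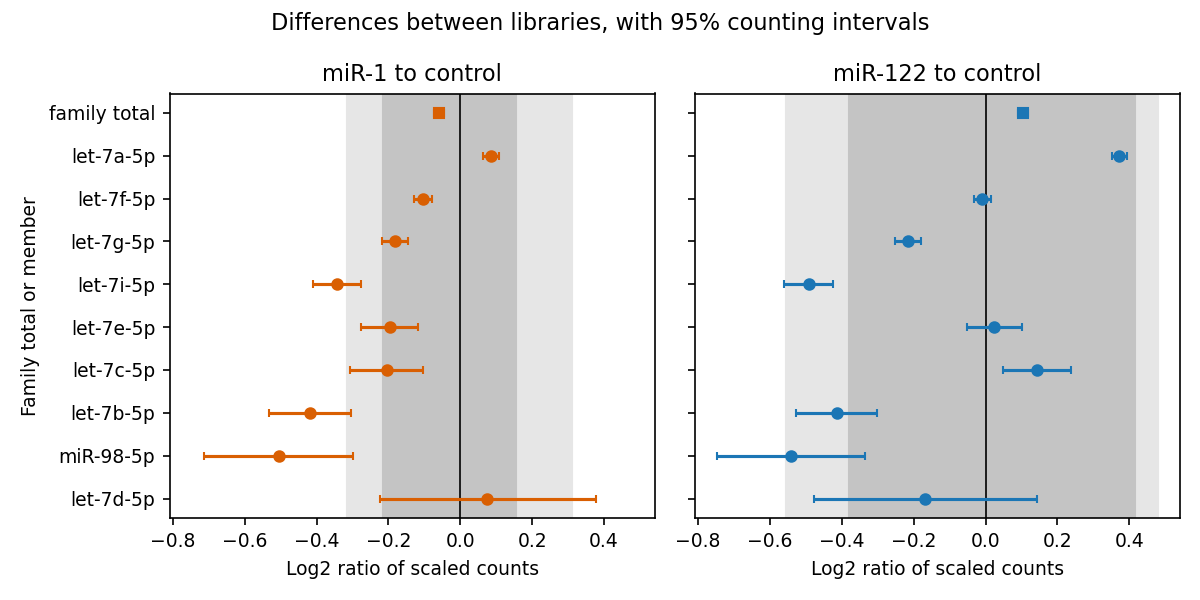
Log2 ratio of scaled counts to the control (x axis) for the family total (square) and each guide strand (circles), with miR-1 on the left and miR-122 on the right (1 library each). Bars are 95% counting intervals and the bands are the median plus and minus the spread of all 514 endogenous miRNAs (light grey) and of the 108 abundant ones (dark grey). let-7a-5p is the rightmost member in the miR-122 panel, at 0.37, and miR-98-5p the leftmost in both, at -0.50 and -0.54.

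The comparison of the miR-1 with the miR-122 library does not use the control. let-7c (-0.35, -0.44 to -0.25), let-7a (-0.29, -0.31 to -0.27) and let-7e (-0.22, -0.30 to -0.14) were lower with miR-1, and let-7i (0.15, 0.08 to 0.22) was higher. let-7f was at -0.09, and the intervals of let-7b, let-7d, let-7g and miR-98 included 0. None of the 9 differed 1.5-fold or more, against 23.2% of the 514, and 5 of 9 were below 0, against 48.1%. The spread over the 108 abundant miRNAs was 0.29. By distance from 0, 1 of the 9 members lay beyond it, against 28.7% of the 108. Of let-7b, let-7g, let-7i and miR-98, each below the control in both libraries, let-7i alone had a log2 ratio between the miRNA libraries whose interval, on this scale, did not include 0. As shares of the family, let-7g and let-7b also differed between these libraries beyond counting error, by 1.86 (1.55 to 2.18) and 0.138 (0.0356 to 0.241) percentage points, both higher with miR-1.

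The directions were compared over 8 settings, the one used here among them, that leave the induced miRNAs out of the scale. These settings reuse the same counts, so a kept sign is no replicate check, and the intervals of let-7d included 0. All 9 members kept their sign with miR-1 against the control, and 7 of 9 did with miR-122. The exceptions were let-7e, which ranged from -0.07 to 0.13, and let-7f, from -0.10 to 0.09. let-7a with miR-122 ranged from 0.28 to 0.47, but stood at -0.12 when the induced miRNAs were counted in the total. As a description only, the 4 members that carry A19G or A19U are let-7b, let-7c, let-7i and miR-98, and let-7b, let-7i and miR-98 were the 3 lowest members in both comparisons with the control, whereas let-7c was not. This grouping was chosen after the values were seen.

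The hairpins of let-7a and of let-7f give the same guide, so the table can separate them only where a read runs past the guide. The guide with the next 4 bases of each hairpin (in capitals) shows how soon they diverge.
MIRLET7A1: ugagguaguagguuguauaguuUUAG
MIRLET7A2: ugagguaguagguuguauaguuUAGA
MIRLET7A3: ugagguaguagguuguauaguuUGGG
MIRLET7F1: ugagguaguagauuguauaguuGUGG
MIRLET7F2: ugagguaguagauuguauaguuUUAG

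Reads that matched several hairpins had been divided among them, and the rows of 1 guide were therefore almost equal. let-7a-1, let-7a-2 and let-7a-3 were given 33.2%, 33.1% and 33.8% of let-7a in the control, and nearly the same in the other libraries. What remained between the rows was small. let-7a-3 exceeded let-7a-2 by 222 counts in the control, 204 with miR-1 and 260 with miR-122, or 0.680%, 0.552% and 0.551% of let-7a. let-7f-2 exceeded let-7f-1 by 557, 608 and 580 counts, or 2.14%, 2.35% and 2.01% of let-7f. A row excess was thus larger for let-7f than for let-7a in every library. That of let-7a was highest in counts with miR-122 and highest as a percentage of let-7a in the control. The let-7f hairpins differ at the base right after the guide, whereas all let-7a hairpins have U there and differ only at the next base. The excesses of let-7f and let-7a are therefore not like for like, and what set their sizes was not tested. Which hairpin supplied the guides cannot be told apart from the guide rows. Fractional counts occurred in the let-7a rows and, in the control and miR-1 libraries, in let-7c, which differs from let-7a by 1 base.

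Passenger strands differ between hairpins and are a readout that the choice of members did not use. All let-7 and miR-98 passengers together had 790 counts in the control, 806 with miR-1 and 635 with miR-122. let-7a-3p, which the let-7a-1 and let-7a-3 hairpins share, was 82.7% to 84.2% of them.
hsa-let-7a-3p: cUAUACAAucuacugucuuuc

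let-7a-3p had 659, 679 and 525 counts, or 391, 378 and 279 scaled CPM, with miR-122 the low library. Its log2 ratio to the control was -0.05 (-0.21 to 0.11) with miR-1 and -0.49 (-0.66 to -0.32) with miR-122, opposite in sign to the 0.37 of its guide. There were 49.6 (45.9 to 53.6) let-7a guides per passenger in the control, 54.4 (50.4 to 58.8) with miR-1 and 90.0 (82.5 to 98.2) with miR-122. The ratio was 1.82-fold higher with miR-122 than in the control (log2 0.86, 0.69 to 1.03). Among 106 miRNAs with at least 10 counts of each arm in every library, the median change of this ratio with miR-122 was 0.11 on the log2 scale and the quartiles were -0.27 and 0.55, and let-7a ranked 11 from the highest. let-7a-2-3p, the passenger of the other let-7a hairpin, had 0 counts in all libraries, which allows up to 3 counts in each.

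The other passengers were rarer. let-7d stood out for a passenger close to its guide, with 34, 29 and 17 passenger counts and 5.21 (3.59 to 7.75), 6.86 (4.63 to 10.5) and 10.4 (6.28 to 18.2) guides per passenger. let-7c-3p had 29, 45 and 41 counts, with 56.6, 33.8 and 49.3 guides per passenger, and let-7e-3p had 36, 29 and 31 counts, with 73.7, 85.2 and 97.3. let-7f-2-3p had 18, 12 and 12 counts and let-7f-1-3p had 0 in every library, so that let-7f had 1445, 2153 and 2405 guides per passenger counted. let-7i-3p had 9, 5 and 4 counts, let-7b-3p 4, 5 and 2, let-7g-3p 1, 1 and 2, and miR-98-3p 0, 1 and 1. The let-7g and miR-98 hairpins therefore gave almost no reads of the opposite arm, although let-7g guides had 12233 to 13010 counts per library. With miR-122 against the control, the guide-to-passenger ratio of let-7d was also higher (log2 0.99, 0.10 to 1.88), and the intervals for let-7c, let-7e, let-7f and let-7i included 0. With miR-1 against the control, that of let-7c was lower (log2 -0.75, -1.43 to -0.06). The miR-1 intervals for let-7a, let-7b, let-7d, let-7e, let-7f and let-7i included 0.

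**Figure D4:**
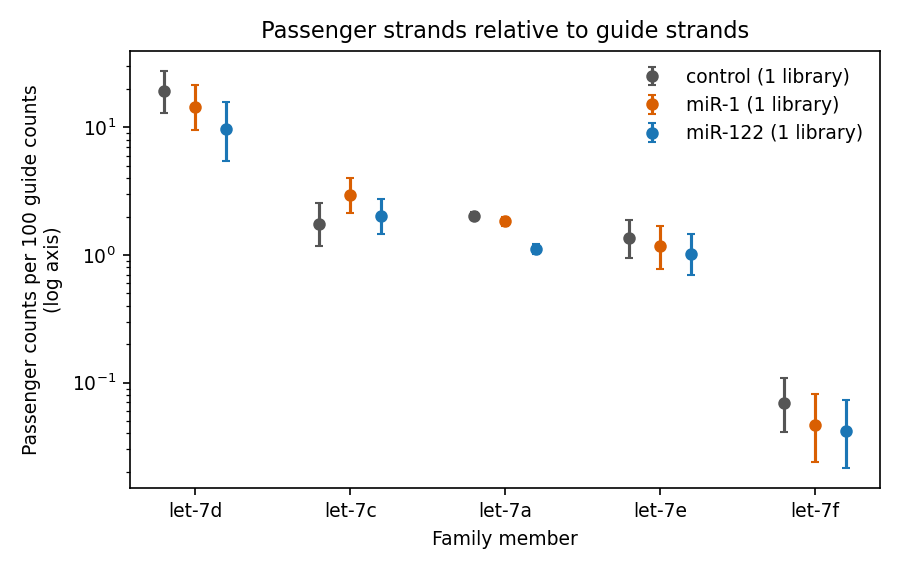
Passenger counts per 100 guide counts (y axis, log scale) for the 5 members with at least 10 passenger counts in every library, by library (1 each), with 95% counting intervals. let-7d has the most passenger and let-7f the least, and the miR-122 point of let-7a, at 1.11, lies below its control point, at 2.02.

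Several let-7 hairpins share a primary transcript with miRNAs of other seeds. On chromosome 21, miR-99a lies 653 bases before let-7c, and miR-99a-5p had 15622, 15942 and 27657 counts. Its log2 ratio to the control with miR-122, 0.67 (0.64 to 0.69), exceeded the 0.14 of let-7c, and there were 9.52 (9.04 to 10.0), 10.5 (9.95 to 11.1) and 13.7 (13.1 to 14.3) miR-99a-5p counts per let-7c count. On chromosome 19, let-7e lies 104 bases after miR-99b and 389 bases before miR-125a. miR-99b-5p had 14326, 18011 and 17416 counts and miR-125a-5p had 5167, 5797 and 6991. With miR-1 against the control these neighbours stood at 0.24 (0.21 to 0.27) and 0.07 (0.02 to 0.13), whereas let-7e was at -0.20 (-0.28 to -0.12). Relative to the control, let-7c thus stood below miR-99a-5p, and let-7e below miR-99b-5p and miR-125a-5p, in both miRNA libraries. With miR-122, however, the intervals of let-7e, 0.02 (-0.05 to 0.10), and miR-99b-5p, 0.12 (0.09 to 0.15), overlapped. The intervals of miR-99a-5p counts per let-7c count also overlapped between the control and miR-1.

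The remaining neighbours were rare or come from more than 1 locus. miR-100-5p, 5635 bases from let-7a-2 in MIR100HG, had 31, 33 and 52 counts. miR-125b-5p, which has a hairpin in MIR100HG and another in MIR99AHG, had 1471, 1491 and 1848 counts, and its passenger miR-125b-2-3p, specific to the copy in MIR99AHG, had 323, 301 and 447. miR-4763, between let-7a-3 and let-7b, had at most 1 count of either arm.

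The endogenous miRNAs closest to the family total in their 2 log2 ratios to the control were sought by Euclidean distance among the 97 that averaged 1000 counts or more and were neither members nor the cluster neighbours named above. The nearest was miR-106b-3p, with 4038, 4129 and 4873 counts and a distance of 0.01, followed by miR-22-3p, miR-30d-5p, miR-146b-5p and miR-92a-3p at 0.07 to 0.08. Such closeness over 3 libraries is a description of these libraries. In RNA from whole cultures, fewer cells with a miRNA and less of it per cell cannot be told apart.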

How the data were processed

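Small RNA libraries (NEBNext, total RNA) were made from Flp-In T-REx 293 cells, 3 in all and 1 per group. With miRDeep2, the authors removed adapters and reads shorter than 18 nt, merged identical reads while keeping their number, and mapped them to miRBase release 21 hairpins plus the synthetic hairpins; its version is not given in the sources used here. The deposited estimated counts divide a read among the hairpins it matched. The deposited RPM values are counts per 1000000 miRNA reads, induced miRNAs included. The submitters' processing notes name hg19, and hairpin positions are GENCODE annotation on GRCh37.

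Counts were summed over hairpins. Endogenous miRNAs averaging 10 or more counts per library entered the scaling by TMM (edgeR 4.0.16, R 4.3.3), and log2 ratios used a pseudocount of 0.5 counts. Intervals (95%) were Clopper-Pearson for ratios of 2 counts, Wilson for shares, exact Poisson for levels in the plot and Newcombe for differences of shares and a normal approximation for changes of guide-to-passenger ratios (SciPy 1.17.1). The scripts were tested on simulated data. With 1 library per group no test was possible, and "called" means at least 1.5-fold. Named miRNAs were the 9 members, their passengers, miRNAs with their seed or transcript, and the 5 closest to the family total; members and lists were chosen with earlier results of these data known. Reads carried no molecular identifiers. Differences between miRNAs in ligation efficiency were not tested. Alternatives were other scalings (total counts, DESeq2 1.42.0 size factors, upper quartile), filters, pseudocount, fold limits and the highest hairpin row.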

Additional observations from a re-analysis of the deposited data

How the results depend on the processing

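Of 354 alternative values for 93 results, 245 stayed within the counting interval (for numbers of members, within 1.5 times) and 109 did not. Values in threes are for the control, then miR-1, then miR-122; ratios in threes are miR-1 to control, then miR-122 against the control, then miR-1 against miR-122. Counting only the highest hairpin row lowers the family share of endogenous counts to 3.39%, 3.03% and 3.16%, and its log2 ratios become -0.12, -0.017 and -0.10, because let-7a and let-7f are divided over several rows; let-7a then takes 23.1%, 26.5% and 29.9% of the family, and let-7f leads with 27.8% in the control and 28.1% with miR-1. With the induced miRNAs in the denominator the share is 2.91% with miR-1 and 3.82% with miR-122. The family ratio is -0.79, -0.39 and -0.40 with the induced miRNAs in the total, -0.10, 0.013 and -0.11 by total endogenous counts, and -0.022, 0.12 and -0.15 at a mean count of at least 100; it is 0.035 and 0.21 for the first and second by upper quartile, and -0.14 for the third with no filter. The median member is -0.92, -0.66 and -0.24 with the induced miRNAs in the total and -0.10 by upper quartile (miR-1 to control). With the fold limit lowered from 1.5 to 5/4, 3, 4 and 1 members differ instead of 0; with the induced miRNAs in the total 9 and 5 of 9 differ 1.5-fold from the control with miR-1 and miR-122, and by total endogenous counts 1 does with miR-122. Under that inclusive total the median of all miRNAs shifts to -0.73, -0.53 and -0.22. Relative to the median of all 514, the median member stands at -0.19, -0.13 and -0.01. A change of scaling shifts all ratios equally and cannot alter these differences, so their sameness over scalings is no check. They become -0.10, -0.008 and -0.07 with no filter, and -0.17, -0.14 and -0.02 at a mean count of at least 100. No paired analysis was possible because there was only 1 library per group. Depth limits let-7d and the passengers other than let-7a-3p.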
